A study of Mus musculus with 2 samples.

Results

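Blood endothelial genes were examined in RNA sequencing data from a mouse knockout of Trappc9 (KO), a subunit of the TRAPP complexes of vesicle transport, and from wild-type mice (WT). The members were 10 genes chosen by symbol: Pecam1, Cdh5, Kdr, Flt1, Tek, Tie1, Vwf, Emcn, Esam and Sox17, out of 54532 genes in the deposited table. All 10 were present on a single line each, all are protein-coding, and all passed the minimum of 1 FPKM on the mean of both libraries. There was 1 library per genotype, so none of the differences below has a replicate check and no p-value is given.

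Per the design text, the cells came from abdominal fat pads of 3 KO and 3 WT mice aged 3 to 4 weeks, digested with collagenase, filtered and pelleted. The titles speak of stem cells from fat, whereas the extraction label describes frozen pads, and the sources used here do not say whether the 3 mice of a genotype were pooled. They give neither the Trappc9 allele nor the strain and sex of the mice. The library labelled KO held 14783728 fragments and the library labelled WT 13705193, as recovered from the deposited values. Trappc9 itself stood at 12.6 FPKM in the library labelled KO and 9.94 FPKM in the library labelled WT, a ratio of 1.27 (95% counting interval 1.17 to 1.37), so the gene-level value did not show the knockout and the libraries are named by their labels. Adipocyte-defining markers were low, with Adipoq at 0.51 FPKM in the library labelled KO and 2.30 FPKM in the library labelled WT, while the epididymal epithelial genes Gpx5 and Lcn8 were abundant: Gpx5 was at 11686 FPKM in the library labelled KO and 10039 FPKM in the library labelled WT, and Lcn8 at 4750 FPKM in the library labelled KO and 3719 FPKM in the library labelled WT.

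Blood endothelial cells line the vessels and control the passage of fluid, lipids and leukocytes between blood and tissue. VEGF-A acts through the receptor Kdr to drive their growth, and Flt1 binds the same ligand with high affinity and limits its supply, also as a soluble form. The angiopoietins act through the receptor Tek, whose activity is modified by its relative Tie1. In adipose tissue the capillary network grows with the fat pad, and its endothelium takes part in the uptake of fatty acids from lipoproteins.

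Promoter windows of the receptor genes and Emcn are shown because the receptors differed in direction between the libraries. Whether promoter sequence has a link to these directions was not tested. RefSeq (GRCm38.p6) gave windows for 5 of the 10 genes (Flt1, Kdr, Tek, Tie1 and Emcn). Windows of Pecam1, Cdh5, Vwf, Esam and Sox17 were not used here. Each line gives the 250 bases before the RefSeq start site, 5′ to 3′ on the gene's strand. Capitals mark GGAA on either strand (TTCC on the strand shown), the core bound by ETS factors, a family on which endothelial genes are known to depend. The last few bases of the Kdr and Emcn windows lie downstream of the start drawn by GENCODE M21. The Tie1 window lies mostly downstream of it and is not printed.
Flt1 (chr5:147726012-147726261, minus strand): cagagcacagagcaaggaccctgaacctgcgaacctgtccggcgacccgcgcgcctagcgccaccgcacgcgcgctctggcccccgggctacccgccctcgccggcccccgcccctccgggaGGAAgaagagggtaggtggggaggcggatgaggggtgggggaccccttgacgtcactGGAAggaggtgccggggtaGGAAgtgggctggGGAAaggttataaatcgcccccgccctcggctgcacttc
Kdr (chr5:75978456-75978705, minus strand): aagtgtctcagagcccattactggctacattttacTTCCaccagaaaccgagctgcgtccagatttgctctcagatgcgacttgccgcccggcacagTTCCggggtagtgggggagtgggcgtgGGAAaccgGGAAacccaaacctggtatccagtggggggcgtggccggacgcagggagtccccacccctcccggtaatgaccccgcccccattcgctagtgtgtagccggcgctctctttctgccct
Tek (chr4:94739039-94739288, plus strand): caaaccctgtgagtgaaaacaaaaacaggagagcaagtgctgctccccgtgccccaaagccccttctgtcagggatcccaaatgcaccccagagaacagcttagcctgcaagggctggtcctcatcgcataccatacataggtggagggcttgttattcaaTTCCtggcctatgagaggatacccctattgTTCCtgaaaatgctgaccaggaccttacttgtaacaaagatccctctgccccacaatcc
Emcn (chr3:137340828-137341077, plus strand): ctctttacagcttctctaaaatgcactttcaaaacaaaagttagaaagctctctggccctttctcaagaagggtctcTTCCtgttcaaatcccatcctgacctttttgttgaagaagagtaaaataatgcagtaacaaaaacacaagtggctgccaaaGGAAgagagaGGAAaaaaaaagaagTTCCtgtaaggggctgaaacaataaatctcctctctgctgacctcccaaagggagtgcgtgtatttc
The 4 windows differed in their CG dinucleotides. The Flt1 window held 23 and the Kdr window 16, whereas the Tek window held 2 and the Emcn window 1, against a median of 6 over 32851 RefSeq windows of the same length. Their G and C content was 70.4% for Flt1, 61.6% for Kdr, 51.2% for Tek and 40.8% for Emcn, against a median of 52.4%. GGAA occurred 4 times in Flt1, 4 in Kdr, 2 in Tek and 4 in Emcn. It is a common word, present in 93.4% of all windows with a median of 3 matches. The letters ACAAT on either strand, the core of sites bound by SOX factors such as Sox17, occurred 2 times in Tek and 1 time in Emcn and were found in 27.7% of all windows. TATAAA on either strand occurred 1 time in Flt1 and in 12.4% of all windows. ACAAT was not in the Flt1 and Kdr windows, and TATAAA was not in the Kdr, Tek and Emcn windows.

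Levels are given as FPKM, fragments per kilobase of gene length scaled by a factor per library. A fragment per kilobase stood for 0.0699 FPKM in the library labelled KO and 0.0706 FPKM in the library labelled WT. The deposited scaling was thus not by the recovered totals alone. Rescaling by those totals multiplied every ratio of KO over WT by 0.936. In both libraries the adhesion genes were the most abundant of the 10, and the members spanned a range from 2.70 to 13.6 FPKM in the library labelled KO and from 1.83 to 12.9 FPKM in the library labelled WT. By level, the order in the library labelled KO was Cdh5, Esam, Pecam1, Tie1, Kdr, Tek, Sox17, Flt1, Emcn and Vwf. In the library labelled WT it was Esam, Cdh5, Pecam1, Tie1, Kdr, Tek, Vwf, Emcn, Flt1 and Sox17. Neighbours in the order had overlapping 95% Poisson intervals in 5 of 9 cases in the library labelled KO (Cdh5 with Esam, and each step from Tek down to Vwf) and in 6 of 9 in the library labelled WT (Esam with Cdh5, Tie1 with Kdr, Kdr with Tek, and each step from Vwf down to Sox17). Sox17 was 7th of the 10 in the library labelled KO and 10th in the library labelled WT, and Vwf was 10th in the library labelled KO and 7th in the library labelled WT.

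**Figure D1:**
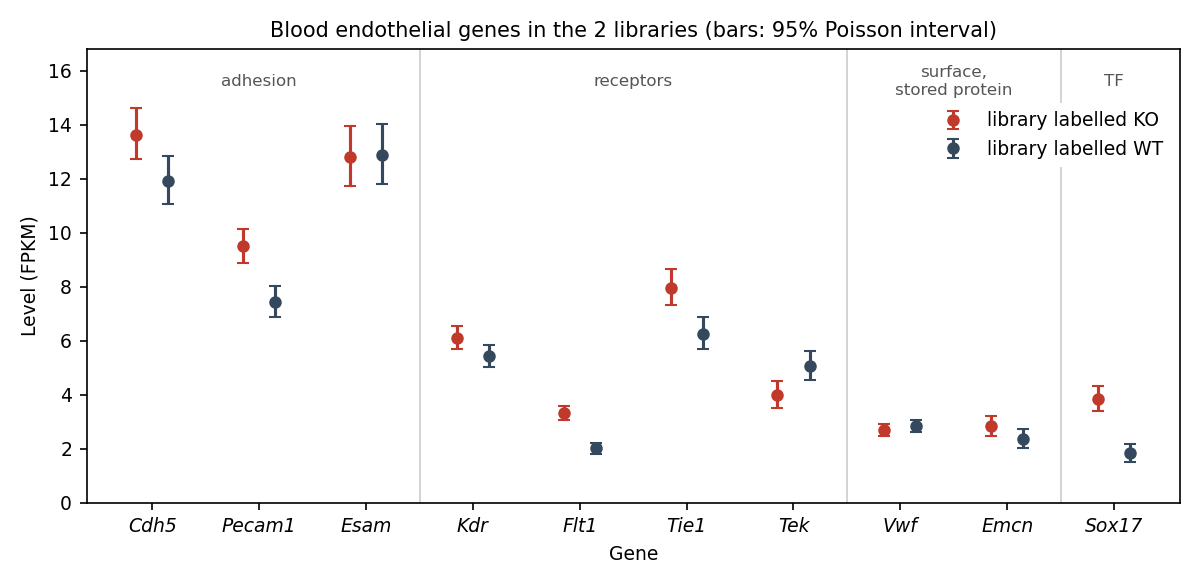
Level in FPKM (vertical axis) of the 10 blood endothelial genes, grouped by role (TF, transcription factor), in the library labelled KO (red, left) and the library labelled WT (dark, right), with 95% Poisson intervals that cover counting error only. The intervals of Pecam1, Tie1, Flt1 and Sox17 lie higher in the library labelled KO without overlap, those of Tek lie higher in the library labelled WT without overlap, and those of Esam and Vwf overlap.

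At the deposited scaling, the adhesion genes Cdh5 and Pecam1 were higher in the library labelled KO and Esam was close to equal. Cdh5 encodes VE-cadherin, the cadherin of endothelial adherens junctions (ENSMUSG00000031871, chr8:104101625-104144511, plus strand, mm10). It was at 13.6 FPKM in the library labelled KO (820 fragments) and 11.9 FPKM in the library labelled WT (710 fragments). The ratio was 1.14 (95% counting interval 1.03 to 1.27) and became 0.99 when both libraries were rescaled to the same sum, as TPM does. Pecam1 encodes CD31, a junctional adhesion molecule that is also carried by platelets and some leukocytes (ENSMUSG00000020717, chr11:106654217-106750628, minus strand). It was at 9.50 FPKM in the library labelled KO (846 fragments) and 7.45 FPKM in the library labelled WT (657 fragments), a ratio of 1.28 (1.15 to 1.41) that became 1.11, within counting error, under the same rescaling.

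Esam encodes an immunoglobulin-type adhesion molecule of endothelial tight junctions and platelets (ENSMUSG00000001946, chr9:37528078-37538319, plus strand). It was at 12.8 FPKM in the library labelled KO (525 fragments) and 12.9 FPKM in the library labelled WT (523 fragments). Its ratio of 0.99 had a counting interval of 0.88 to 1.12, so a difference of the size seen in Pecam1 lay outside it. In these bulk libraries more cells of a type and more RNA per cell cannot be told apart, which applies to every value here.

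The receptors went in both directions: at the deposited scaling the VEGF receptors Flt1 and Kdr and the orphan receptor Tie1 were higher in the library labelled KO, and the angiopoietin receptor Tek was lower. Kdr, the main signalling receptor for VEGF-A (ENSMUSG00000062960, chr5:75932827-75978458, minus strand), had 6.10 FPKM in the library labelled KO (788 fragments) and 5.43 FPKM in the library labelled WT (694 fragments). Its ratio was 1.12 (1.01 to 1.25), the call closest to no change among the 6 genes higher in the library labelled KO, and it became 0.98 when both libraries were rescaled to the same sum. Flt1, the receptor that limits VEGF supply (ENSMUSG00000029648, chr5:147561604-147726011, minus strand), had 3.33 FPKM in the library labelled KO (643 fragments) and 2.01 FPKM in the library labelled WT (385 fragments), a ratio of 1.65 (1.46 to 1.88). GENCODE M21 lists 6 transcripts of Flt1, and the table gives 1 value for all, so membrane-bound and soluble forms were not separated. Per kilobase, the Flt1 level was 0.546 of the Kdr level in the library labelled KO and 0.371 of it in the library labelled WT. The Flt1 to Kdr ratio was thus 1.47 times as large in the library labelled KO (1.25 to 1.74), a comparison in which the scaling between libraries cancels.

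Tie1, which modifies Tek signalling (ENSMUSG00000033191, chr4:118471191-118490061, minus strand), was at 7.96 FPKM in the library labelled KO (560 fragments) and 6.26 FPKM in the library labelled WT (436 fragments), a ratio of 1.27 (1.12 to 1.44). Rescaled to the same sum, the ratio was 1.11 (0.97 to 1.26), within counting error. Tek, the angiopoietin receptor also called Tie2 (ENSMUSG00000006386, chr4:94739289-94874976, plus strand), was at 3.99 FPKM in the library labelled KO (269 fragments) and 5.06 FPKM in the library labelled WT (338 fragments), a ratio of 0.79 (0.67 to 0.93). Tek was the only member lower beyond counting error at the deposited scaling. The Tek level was 0.501 of the Tie1 level in the library labelled KO and 0.809 of it in the library labelled WT, so the Tek to Tie1 ratio was 0.62 times as large in the library labelled KO (0.50 to 0.76). By contrast, the Cdh5 to Pecam1 ratio was 1.44 in the library labelled KO and 1.60 in the library labelled WT, and its change of 0.90 had an interval that included 1 (0.78 to 1.04).

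At the deposited scaling, neither Vwf nor Emcn differed beyond counting error. Vwf encodes von Willebrand factor, the clotting protein stored in endothelial granules and made by megakaryocytes as well (ENSMUSG00000001930, chr6:125546774-125686679, plus strand). It was at 2.70 FPKM in the library labelled KO (620 fragments) and 2.86 FPKM in the library labelled WT (650 fragments), a ratio of 0.94 (0.84 to 1.06). Vwf was lower in the library labelled KO beyond counting error under 3 of the 4 other scalings, with ratios of 0.82 (0.73 to 0.92) when rescaled to the same sum and 0.88 by total fragments or without the 100 most abundant genes. Emcn encodes endomucin, a sialomucin of venous and capillary endothelium (ENSMUSG00000054690, chr3:137341067-137432185, plus strand). It was at 2.83 FPKM in the library labelled KO (219 fragments) and 2.38 FPKM in the library labelled WT (182 fragments), a ratio of 1.19 (0.97 to 1.46). The wide interval of Emcn reflects its small number of fragments and includes both no change and the ratio of Pecam1.

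Sox17 had the highest ratio of the 10. It encodes a SoxF transcription factor required for arterial identity, and it also acts in endoderm and fetal blood stem cells (ENSMUSG00000025902, chr1:4490931-4497354, minus strand, mm10). It had 3.84 FPKM in the library labelled KO (262 fragments) and 1.83 FPKM in the library labelled WT (124 fragments), a ratio of 2.09 (1.68 to 2.61). On the scale log2((KO + 1)/(WT + 1)) its value was 0.77, where the 1 FPKM added to both levels understates changes of low genes. This left it short of the 2-fold threshold of 1 on that scale, and with a pseudocount of 0.1 FPKM it passed, at 1.03. The noncoding gene Gm37587 overlaps Sox17 on the opposite strand, sharing 804 exonic bases in GENCODE M21. It had 1 fragment in the library labelled KO and 0 in the library labelled WT. Reads of such partners cannot be told apart without strand, which the sources used here do not state. The paralogues Sox18 and Sox7, the other SoxF genes, were also higher or unresolved: Sox18 was at 6.04 FPKM in the library labelled KO and 3.88 FPKM in the library labelled WT, a ratio of 1.56 (1.19 to 2.06), and Sox7 was at 3.56 FPKM in the library labelled KO and 3.04 FPKM in the library labelled WT, a ratio of 1.17 (0.93 to 1.48). The Sox17 to Sox7 ratio was 1.78 times as large in the library labelled KO (1.30 to 2.46), whereas the Sox17 to Sox18 change of 1.34 had an interval that included 1 (0.94 to 1.91).

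Of the 10 genes, 6 were higher beyond counting error in the library labelled KO and 1 was lower, where a call means that the 95% interval excluded no change. Over all 13084 measured genes (protein-coding, mean of 1 FPKM or more) 24.6% were called higher and 17.6% lower. Among the 5425 of them with as many fragments as the members (386 to 1530 in both libraries together), the shares were 20.3% and 17.2%. The share of members called higher at the deposited scaling, 60%, was numerically above both background shares. The 10 genes mark the same cell type and were chosen with earlier results known, so this does not set them apart from the background. The count of 6 also fell to 2 after rescaling to the same sum, with 3 called lower. The background shares then stood at 7.88% higher and 48.4% lower. At the deposited scaling the share called lower rested on 1 gene, also too few to set it apart from the background. At least 2-fold higher or lower on the log2 scale were 0 members, against 0.948% and 0.29% of all genes, and as a background near 0 this count of 10 genes carries little. The median log2 ratio of the members was 0.18, against 0.02 for all measured genes, with a range from -0.28 for Tek to 0.77 for Sox17. Of all measured genes, 98.3% had a lower log2 ratio than Sox17, 96.5% a lower one than Flt1 and 9.46% a lower one than Tek.

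**Figure D2:**
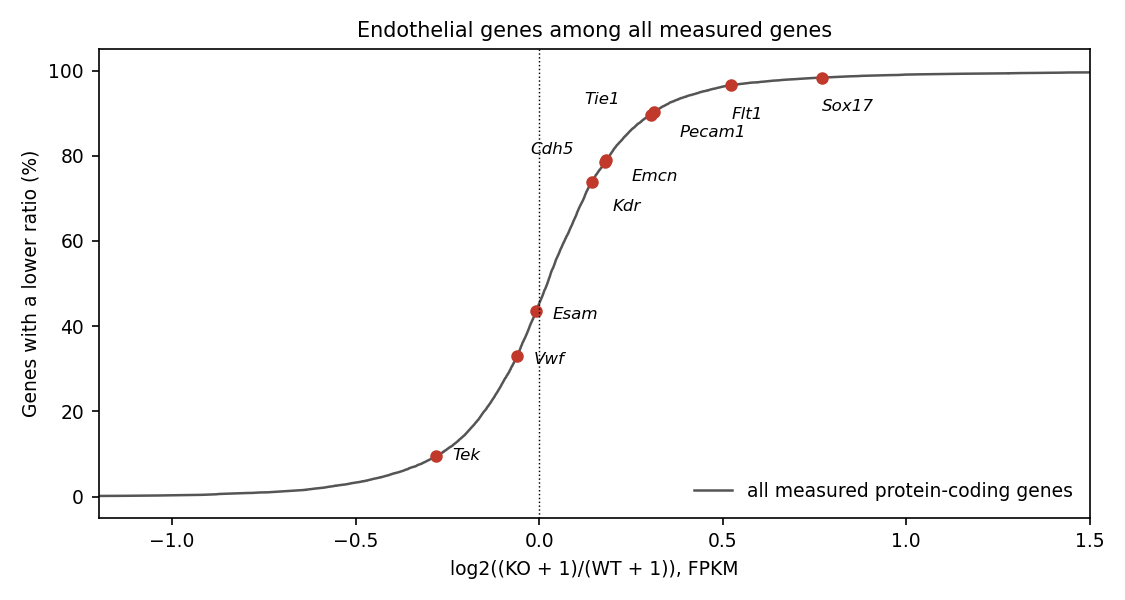
Cumulative share of 13084 measured protein-coding genes (vertical axis, percent with a lower value) by log2((KO + 1)/(WT + 1)) of FPKM (horizontal axis, cropped at the ends), with the 10 blood endothelial genes as red points. Sox17 and Flt1 lie above 96% of genes, 5 members lie between 73.9% and 90.2%, Esam lies at 43.6%, Vwf at 33.0% and Tek at 9.46%.

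The directions of the small differences depended on how the libraries were scaled. Contrasts among members could not depend on it, because a factor per library cancels in them. Rescaled to the same sum of FPKM, as TPM does, the median of all measured genes moved by -0.17 on the log2 scale and that of the members fell to 0.01, so that the members stayed 0.17 above all genes, against 0.16 at the deposited scaling. Under that rescaling Sox17 (ratio 1.82) and Flt1 (1.44) were still higher beyond counting error, Tek (0.69), Vwf (0.82) and Esam (0.86) were lower, Pecam1 and Tie1 (both 1.11) were no longer called, and Cdh5 and Kdr turned to log2 ratios of -0.01 and -0.03, within counting error. Of all measured genes, 7.88% were called higher and 48.4% lower under it. The summed level of the members was 66.7 FPKM in the library labelled KO and 58.1 FPKM in the library labelled WT, a ratio of 1.15 that became 1.00 after this rescaling. The 10 genes held 0.0376% of all fragments in the library labelled KO and 0.0343% in the library labelled WT.

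Set against the summed fragments of the other 9 members, which removes the scaling, Sox17 was 1.83 times as high in the library labelled KO (1.46 to 2.29) and Flt1 1.47 times (1.28 to 1.68). Tek was 0.66 times as high (0.55 to 0.78), Vwf 0.78 times (0.69 to 0.88) and Esam 0.83 times (0.73 to 0.95). Intervals of Pecam1, Tie1, Emcn, Cdh5 and Kdr included 1, with relative ratios from 0.95 to 1.11. The 10 genes thus did not share 1 ratio within counting error.

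**Figure D3:**
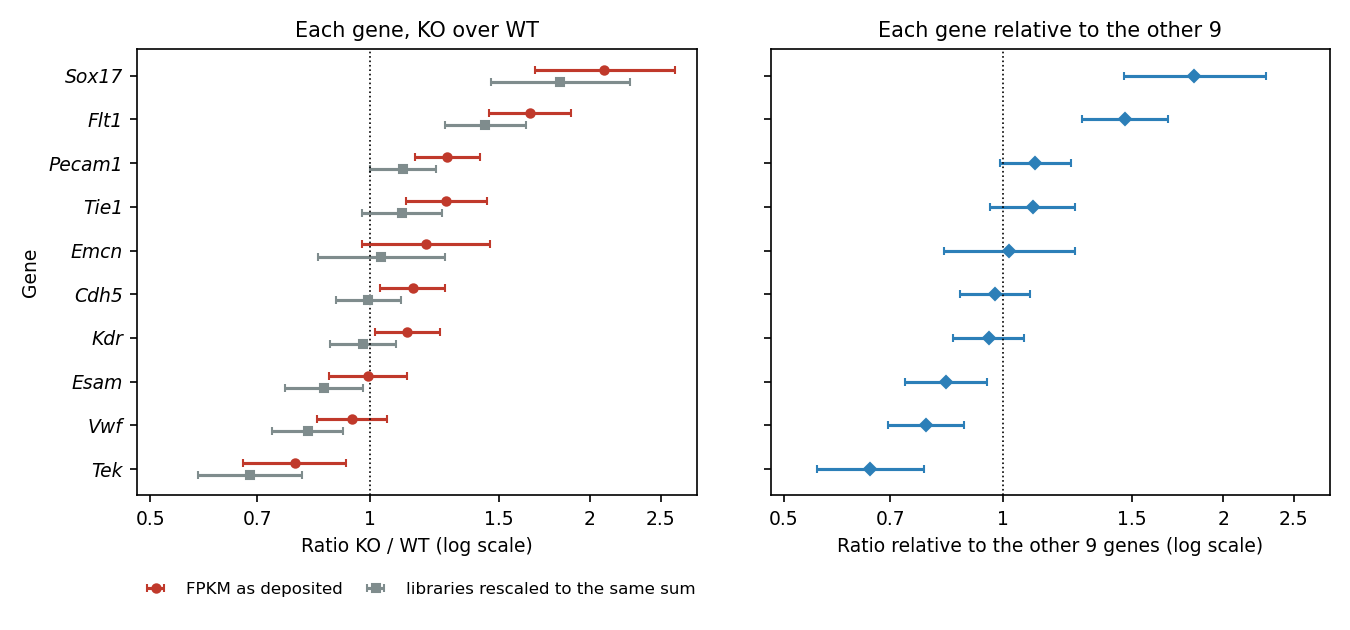
Left, ratio of the library labelled KO over the library labelled WT for each gene (log axis) with 95% counting intervals, for FPKM as deposited (red circles) and after rescaling both libraries to the same sum (grey squares). Right, ratio of each gene relative to the summed fragments of the other 9 genes (log axis), in which Sox17 and Flt1 lie above 1, Tek, Vwf and Esam lie below it, and the remaining 5 intervals include 1.

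Genes of the surrounding pathways were taken from lists of 102 further endothelial genes, of which 92 were measured. Of these, 30 (32.6%) were higher in the library labelled KO beyond counting error and 19 (20.7%) lower, to be read against 24.6% and 17.6% of all measured genes, and their median log2 ratio was 0.05. After rescaling to the same sum, where 7.88% of all measured genes were higher and 48.4% lower, the counts were 14 and 37, and list by list, with higher before lower, they were 1 and 3 for ligands, 2 and 5 for receptors, 3 and 5 for arterial and Notch genes, 0 and 3 for venous genes, 3 and 4 for capillary genes, 2 and 10 for junction and surface genes and 3 and 7 for transcription factor genes. The counts below are at the deposited scaling. Among 12 ligands, 9 were measured, with 1 higher and 2 lower. The higher one was Vegfa, the ligand of Kdr and Flt1, at 25.5 FPKM in the library labelled KO (1563 fragments) and 14.7 FPKM in the library labelled WT (893 fragments), a ratio of 1.73 (1.60 to 1.88). Vegfa is made by many cell types, epithelia included. Pgf, which binds Flt1 and not Kdr, was at 17.7 FPKM in the library labelled KO and 18.4 FPKM in the library labelled WT, within counting error, as were Vegfb, Vegfc and Vegfd. Of the Tek ligands, Angpt4 was the most abundant, at 5.45 FPKM in the library labelled KO (182 fragments) and 5.74 FPKM in the library labelled WT (190 fragments). Its ratio of 0.95 was within counting error (0.77 to 1.17). Angpt2 was at 1.25 FPKM in the library labelled KO and 1.17 FPKM in the library labelled WT. Angpt1 was under the minimum, with 52 fragments in the library labelled KO and 31 in the library labelled WT, and the Angpt2 to Angpt1 change of 0.65 had an interval from 0.35 to 1.18. The chemokine gene Cxcl12 (12.9 FPKM in the library labelled KO, 14.9 FPKM in the library labelled WT) and the apelin gene Apln (0.78 FPKM in the library labelled KO, 1.30 FPKM in the library labelled WT) were the 2 lower ligands.

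Of 15 receptors and co-receptors, 5 were higher beyond counting error and 2 lower. The netrin receptor Unc5b was at 6.87 FPKM in the library labelled KO and 4.93 FPKM in the library labelled WT, a ratio of 1.39 (1.23 to 1.58). S1pr1, the sphingosine-1-phosphate receptor that tightens the endothelial barrier, was at 6.70 FPKM in the library labelled KO and 4.84 FPKM in the library labelled WT. Also higher were Ptprb, the phosphatase that acts on Tek (5.57 FPKM in the library labelled KO, 4.73 FPKM in the library labelled WT), Bmpr2 and Acvrl1. The VEGF co-receptor Nrp1, which other cells carry as well, was lower, at 6.27 FPKM in the library labelled KO and 7.29 FPKM in the library labelled WT, and so was Plxnd1.

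Arterial and Notch genes were split. Of 12 measured, 4 were higher and 3 lower. The gap junction gene Gja4 was at 10.7 FPKM in the library labelled KO and 6.70 FPKM in the library labelled WT, a ratio of 1.60 (1.31 to 1.96), and the Notch ligand Dll4 was at 3.16 FPKM in the library labelled KO and 1.998 FPKM in the library labelled WT, a ratio of 1.58 (1.24 to 2.03). Notch4 and Sema3g, named after their values were seen, were the other 2 higher genes. Notch1, also named then, was lower, at 19.3 FPKM in the library labelled KO and 20.5 FPKM in the library labelled WT. Its ratio was 0.94 (0.90 to 0.98). Efnb2, a ligand of arterial endothelium that is also made by other cells, was at 11.7 FPKM in the library labelled KO and 14.7 FPKM in the library labelled WT, and the Notch target Hey2 was at 1.23 FPKM in the library labelled KO and 1.72 FPKM in the library labelled WT, both lower. Of 7 venous genes, 1 was higher (Icam1, an adhesion molecule of many cells) and 2 were lower. The venous regulator Nr2f2, which stromal cells also express, was at 7.23 FPKM in the library labelled KO and 8.64 FPKM in the library labelled WT, a ratio of 0.84 (0.76 to 0.92). Ackr1, at 1.19 FPKM in the library labelled KO and 1.86 FPKM in the library labelled WT, rested on 24 fragments in the library labelled KO and 37 in the library labelled WT and was within counting error.

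Capillary genes had a median log2 ratio of 0.20, with 6 of 12 higher and 3 lower. The water channel Aqp1, which epithelia and red cells also carry, was at 75.2 FPKM in the library labelled KO and 43.1 FPKM in the library labelled WT, a ratio of 1.74 (1.64 to 1.86). Gpihbp1, the capillary protein that holds lipoprotein lipase, was at 7.25 FPKM in the library labelled KO and 4.42 FPKM in the library labelled WT, a ratio of 1.64 (1.34 to 2.01). The caveolar genes Cavin2 and Cav2, shared with fat cells and fibroblasts, were lower, with Cavin2 at 20.1 FPKM in the library labelled KO and 23.7 FPKM in the library labelled WT. Among 22 junction and surface genes 8 were higher and 5 lower. The tight junction claudin Cldn5 was at 23.5 FPKM in the library labelled KO and 18.5 FPKM in the library labelled WT, a ratio of 1.27 (1.11 to 1.46). Adgrl4 (3.89 FPKM in the library labelled KO, 2.48 FPKM in the library labelled WT) and Ecscr (5.49 FPKM in the library labelled KO, 3.66 FPKM in the library labelled WT) were higher too, with the highest ratios of this list. Cd34, shared with progenitor cells of fat, had the lowest ratio of the list, at 27.4 FPKM in the library labelled KO and 52.6 FPKM in the library labelled WT, a ratio of 0.52 (0.50 to 0.54), and thrombomodulin, Thbd, followed with 23.5 FPKM in the library labelled KO and 31.9 FPKM in the library labelled WT. Procr was lower as well, with a ratio of 0.74 (0.59 to 0.93). Clec14a (0.76, 0.55 to 1.04), Icam2 (0.85, 0.61 to 1.18) and Cd93 (0.98, 0.87 to 1.12) were within counting error.

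Of 15 measured endothelial transcription factor genes, 5 were higher and 2 lower, with a median log2 ratio of 0.05. Besides Sox18, the hypoxia factor gene Epas1 was higher, at 36.2 FPKM in the library labelled KO and 26.0 FPKM in the library labelled WT, a ratio of 1.39 (1.31 to 1.48). Erg, an ETS factor gene with expression largely restricted to endothelium, was at 2.02 FPKM in the library labelled KO (100 fragments) and 2.06 FPKM in the library labelled WT (101 fragments), a ratio of 0.98 (0.74 to 1.31). Lmo2 was lower, at 4.00 FPKM in the library labelled KO and 5.38 FPKM in the library labelled WT.

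Markers of other cells were set beside the members, since several members are shared with them. Lymphatic genes had a median log2 ratio of -0.04 (5 of 7 measured, 1 higher and 1 lower), and their summed level was 59.1 FPKM in the library labelled KO and 52.8 FPKM in the library labelled WT. Most of both sums was Pdpn, at 30.9 FPKM in the library labelled KO and 32.4 FPKM in the library labelled WT. The higher gene was Ccl21a, with 69 fragments in the library labelled KO and 16 in the library labelled WT, a ratio of 4.27 (2.45 to 7.88), and without it the sums were 47.1 FPKM in the library labelled KO and 49.9 FPKM in the library labelled WT. The defining lymphatic gene Prox1 was at 0.59 FPKM in the library labelled KO and 0.72 FPKM in the library labelled WT, and Lyve1 was at 9.80 FPKM in the library labelled KO and 11.7 FPKM in the library labelled WT. Ccl21a, a chemokine gene, has near-identical copies that can share its reads and is uncertain. Pericyte and smooth muscle genes had a median of 0.03 (11 measured, 3 higher and 5 lower) and sums of 662 FPKM in the library labelled KO and 672 FPKM in the library labelled WT. Most of both sums was Acta2, at 476 FPKM in the library labelled KO and 491 FPKM in the library labelled WT. Within that list the pericyte gene Rgs5 was at 20.7 FPKM in the library labelled KO and 14.5 FPKM in the library labelled WT, a ratio of 1.43 (1.32 to 1.56), and Pdgfrb was at 7.44 FPKM in the library labelled KO and 6.87 FPKM in the library labelled WT, within counting error. Kcnj8 (ratio 1.39) and Des (1.29) were also higher. The 5 lower genes were Mcam (0.78), Cspg4 (0.82), Notch3 (0.89), Myh11 (0.96) and Acta2 (0.97). Mcam was in the junction and surface list as well and was counted as lower in both lists.

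Platelet genes, relevant to Pecam1, Esam and Vwf, summed to 18.9 FPKM in the library labelled KO and 19.6 FPKM in the library labelled WT, with 3 of 6 measured, 0 called in either direction, Gp6 at 0 in both libraries and a median of -0.02. Leukocyte genes summed to 154 FPKM in the library labelled KO and 146 FPKM in the library labelled WT, with 1 of 6 measured genes higher and 0 lower, and Ptprc at 1.06 FPKM in the library labelled KO and 1.12 FPKM in the library labelled WT. Most of both sums was the higher gene, Lyz2, at 98.9 FPKM in the library labelled KO and 91.0 FPKM in the library labelled WT. Erythroid genes summed to 725 FPKM in the library labelled KO and 608 FPKM in the library labelled WT, with 4 of 5 measured genes higher and 0 lower. Epididymal genes summed to 22740 FPKM in the library labelled KO and 16494 FPKM in the library labelled WT, with 7 of 8 higher and 1 lower. Adipocyte genes summed to 3.48 FPKM in the library labelled KO and 5.96 FPKM in the library labelled WT, with 2 of 3 measured genes lower and 0 higher. After rescaling to the same sum, the counts higher and lower were 1 and 2 for lymphatic genes, 2 and 5 for pericyte and smooth muscle genes, 0 and 1 for platelet genes, 0 and 2 for leukocyte genes, 1 and 0 for erythroid genes, 7 and 1 for epididymal genes and 0 and 2 for adipocyte genes. The part of these differences in tissue makeup in the values of the endothelial genes was not tested.

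**Figure D4:**
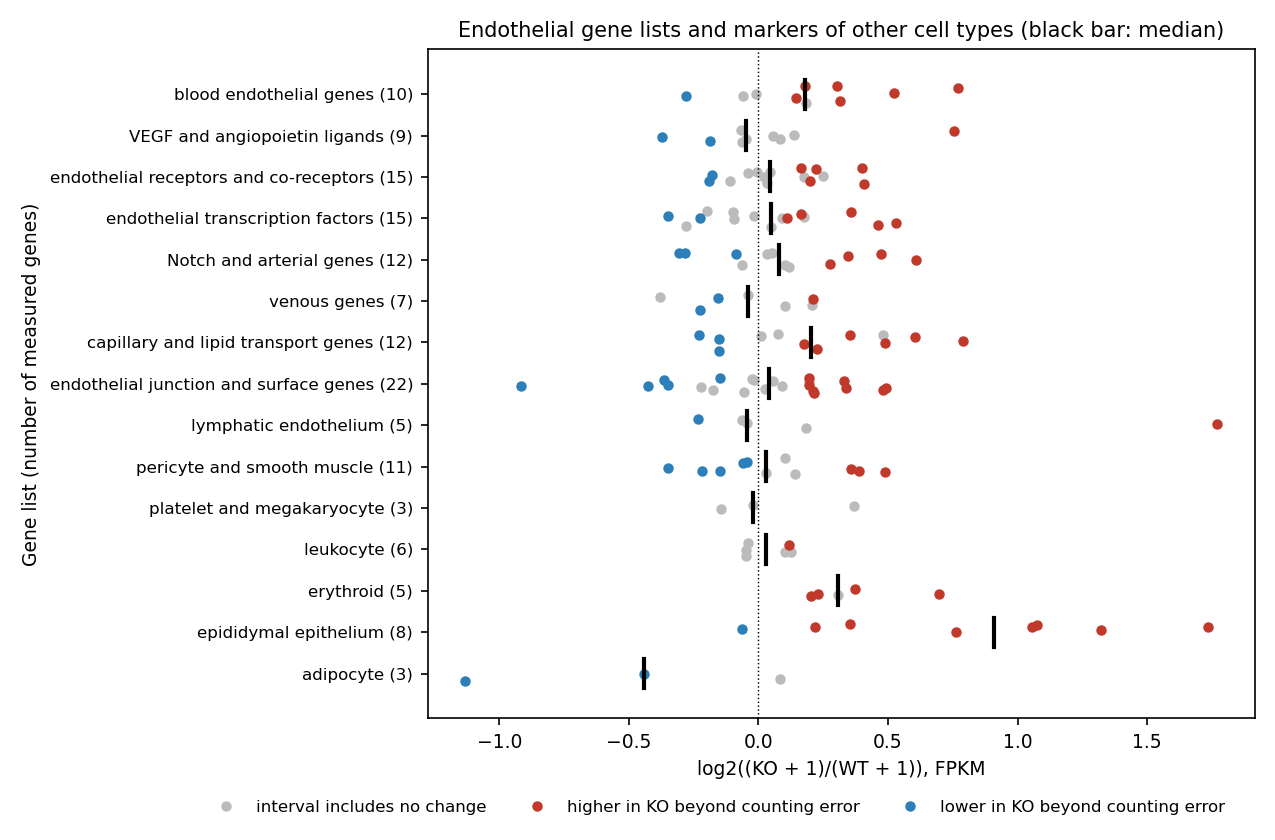
Each point is a measured gene placed by log2((KO + 1)/(WT + 1)) of FPKM (horizontal axis), in rows by gene list, coloured by whether its 95% counting interval lay above no change (red), below it (blue) or included it (grey), with the list's median as a black bar. The blood endothelial genes have a median of 0.18, the capillary list 0.20, the 5 other endothelial and vascular regulator lists from -0.05 to 0.08, the venous list -0.04 and the epididymal list 0.91.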

How the data were processed

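RNA was measured in 2 libraries, 1 per genotype, prepared with a TruSeq RNA kit per the labels' protocols. The authors deposited 1 FPKM value per gene and library, with gene length and position. HISAT2 2.0.5, a read aligner, and the builds hg38 and mm10 are listed, per the submitters' processing notes. The program that counted reads was not given in the sources used here. Positions of all 10 genes were the same in GENCODE M21 (GRCm38, also called mm10).

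Within each library, 100% of the FPKM values above 0, times gene length, were whole multiples of a single step (within 0.01 of a fragment), which gave the fragments behind each value. Levels and scaling were kept as deposited. Ratios carry exact 95% Clopper-Pearson intervals on the share of fragments from the library labelled KO, levels carry exact Poisson intervals, and comparisons between genes carry exact conditional intervals of the odds ratio (scipy 1.17.1). All cover counting error only, and fragments without molecular identifiers are not independent molecules. The recovery and the intervals were tested on simulated data. A symbol on several lines was read from the line with the larger mean. Rescaling to the same sum used the proportions of TPM at the size of the FPKM values.

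All 10 members are named. Ligands, receptors, the 2 genes at either end of the log2 ratios of other lists and defining markers could be named, and not all of them are. Others are named after their values were seen, Sox7 included. The members, lists and gene pairs were chosen with earlier results of these data known. A gene of the platelet list is not reported here. Alternatives changed the pseudocount, the scaling, the filter, the confidence level and the background.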

Additional observations from a re-analysis of the deposited data

How the results depend on the processing

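No paired analysis was possible because each genotype had 1 library, and for the same reason no library could be left out. With the pseudocount at 0.1 FPKM, 1 blood endothelial gene, Sox17, was at least 2-fold higher, against 0 as reported. Rescaled to the same sum (TPM), 2 members were higher and 3 lower beyond counting error, against 7.88% and 48.4% of all measured genes. The median log2 ratio of the members was 0.014, and the ratio of their summed levels was 1.00 (0.998, the other side of no change). Cdh5 and Kdr turned to log2 ratios of -0.0079 and -0.028, and the companion endothelial genes counted 14 higher and 37 lower. Rescaled by total fragments, 4 were higher (Pecam1, Flt1, Tie1 and Sox17) and 2 lower (Tek and Vwf), against 14.5% and 30.3% of all measured genes, and the ratio of sums was 1.07. Leaving the 100 most abundant genes out of the sum gave 4 and 2 as well, against 13.6% and 31.9%, with a ratio of sums of 1.07. With a minimum mean of 5 FPKM, 4 were higher, because Sox17 and Flt1 were no longer measured, and 0 were lower, because Tek was not measured either. The 99% interval and the scaling to the median of all genes each left 5 higher, without Kdr, and 1 lower. Under the median scaling 21.3% of all measured genes were higher and 20.6% lower. The shares over all genes at 99% and at the 5 FPKM minimum were not computed. Sox17 and Flt1 were higher, and Tek lower, under all 4 other scalings and at the 99% interval. Calls relative to the other members, 2 above and 3 below, were the same in number at 99%. Without Sox17, an alternative chosen after seeing the data like the lymphatic sum without Ccl21a, the background by fragment number and the 99% interval between members, the median was 0.18. Genes with a mean of 1 to 20 FPKM, also chosen then, gave background shares of 19.4% higher and 17.9% lower, and all biotypes gave 1.79% and 1.01% at 2-fold. Depth limits Emcn, Ackr1, Erg and Angpt1, whose intervals were wide.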
